A study of Mus musculus with 17 samples.

Results

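The genes described here are 10 glutathione transferases and targets of the transcription factor NRF2 in mouse epididymal fat: Gsta3, Gsta4, Gstm1, Gstm2 and Gstt2 among the transferases, and Nqo1, Gclc, Gclm, Txnrd1 and Srxn1 among the NRF2 targets. They were taken by gene name from the array files, where 14 of 41174 probes carried one of these names. All 10 genes and 13 of these probes passed the filter on dim signal, out of 18134 genes and 25515 probes that passed it in all. A probe passed where Cy5, the dye of the mouse, exceeded background clearly on 8 or more arrays. The probe left out was 1 of the 3 probes of Srxn1.

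The tissue was white fat of the epididymal depot, taken from male adult mice of the C57BL/6J strain, with 1 mouse to an array. Every mouse ate a purified diet with 30% of its energy as fat for 13 weeks. The carbohydrate of that diet had a high glycemic index in 9 mice (HGI) and a low one in 8 mice (LGI), and no mice on a low-fat diet were analysed here, so that both groups carried the high-fat feeding. The arrays were Agilent 2-colour arrays, with the RNA of the mouse in Cy5 and, in Cy3, a pool that the labels describe as made from all the samples of the study, some of which are not analysed here. Values below are log2 ratios of a mouse to the pool, and differences are HGI minus LGI on that log2 scale.

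Glutathione transferases join glutathione to reactive molecules such as the aldehydes that arise when fat is oxidized. NRF2, encoded by Nfe2l2, is held back by KEAP1 and, when released, binds antioxidant response elements with a small MAF protein and raises the genes that make glutathione and reduce thioredoxin and quinones. In fat, Gsta4 is known as an enzyme that clears hydroxynonenal, a product of lipid peroxidation.

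The core of the antioxidant response element was searched for as TGACNNNGC on both strands in the 250 bases before the start of each gene, as RefSeq gives them for GRCm38.p6. Entries were held for 7 of the 10 genes, 10 promoters in all, and 3 of them held the core. It occurred in 3338 of all 32851 promoters of the same length, which is 10.2%. The 3 windows are shown because NRF2 acts through this element, with the core in capitals and written 5′ to 3′ on the gene's strand. The Gsta3 window is chr1:21240335-21240584 on the plus strand, with the core starting at base -121 from the gene's start. The Gclm window is chr3:122245307-122245556 on the plus strand and holds the core on the opposite strand, at -134. The Txnrd1 window is the second of 3 starts of the gene, chr10:82858956-82859205 on the plus strand, with the core on the opposite strand at -92.
Gsta3: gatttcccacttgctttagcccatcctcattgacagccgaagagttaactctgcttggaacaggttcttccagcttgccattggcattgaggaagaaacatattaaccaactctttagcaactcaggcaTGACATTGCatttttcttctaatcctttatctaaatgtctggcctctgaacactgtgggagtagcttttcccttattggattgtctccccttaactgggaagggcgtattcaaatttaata
Gclm: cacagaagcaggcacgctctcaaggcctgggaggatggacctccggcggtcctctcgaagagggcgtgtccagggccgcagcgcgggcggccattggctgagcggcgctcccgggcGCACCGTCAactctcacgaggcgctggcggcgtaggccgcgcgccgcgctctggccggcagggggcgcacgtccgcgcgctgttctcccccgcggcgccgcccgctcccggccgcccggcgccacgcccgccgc
Txnrd1: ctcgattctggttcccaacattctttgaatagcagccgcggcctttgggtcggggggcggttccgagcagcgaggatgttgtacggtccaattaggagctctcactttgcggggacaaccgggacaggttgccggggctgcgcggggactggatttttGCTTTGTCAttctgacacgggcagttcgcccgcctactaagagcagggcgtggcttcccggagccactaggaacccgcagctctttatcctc
A match of these letters describes the sequence and is not evidence of binding in fat. Only this spelling of the core was searched, so a window without it may hold another form of the element.

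Arrays HGI 9 and HGI 10 stood apart from the other 15 arrays. Their log2 ratios correlated at 0.808 with each other and between -0.047 and 0.144 with the other arrays, which correlated between 0.374 and 0.831 among themselves. The mean of 6 seminal vesicle secretion genes was 1.50 on HGI 9 and 1.54 on HGI 10, against an HGI median of -4.24 and LGI values between -4.44 and -4.04. The mean of 6 smooth muscle genes was 1.47 and 1.32 on these arrays, against an HGI median of -0.91 and LGI values between -1.38 and -0.58. Epithelial markers were also high on these arrays, with a mean of 0.93 and 0.60, against LGI values between -1.74 and 0.61. Adipocyte markers had low means there, at -0.32 and -0.27, as had fibroblast markers (-0.33 and -0.34) and endothelial markers (-0.35 and -0.21). Macrophage markers had -0.23 and -0.09, against an HGI median of 0.12. Mesothelial markers were not low, at 0.07 and -0.04, against an HGI median of -0.08. LGI 9 was the highest LGI array for epithelial markers (0.61, with the next at -1.02), motile cilia (0.90) and sperm (0.25). The mean of 11 epididymal genes was far below the pool on each of the 17 arrays, from -3.26 to -2.85 in HGI and from -3.30 to -2.75 in LGI, so that the pool does not match these 17 mice in every gene. All 12 adipocyte markers passed the filter, among them Adipoq, Plin1 and Fabp4. The differences below are given over all 17 arrays, with the value without HGI 9 and HGI 10 for each of the 10 genes and for the pathway genes it moves by more than 1.5 times. Nothing in the labels names separate cages or batches. A p-value of the diet difference weighs it against the spread between these mice, taken as independent, and does not cover unlabelled cages or batches. In whole tissue, fewer cells of a type and less RNA in each cell cannot be told apart.

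No gene passed an adjusted p of 0.05 for the difference between the diets in limma's fit over all 18134 genes (0% called). Without adjustment 7.74% of the genes had a p under 0.05, 3.96% higher and 3.78% lower in HGI. Among the 10 genes of interest 1 did, Gsta4, which was lower in HGI. Of the 10, 6 had an estimate above 0 and 4 below it, against 52.6% and 47.4% of all genes. By probe, 2 of the 13 tested had an unadjusted p under 0.05, those of Gsta4 and Gstm2, against 7.65% of all probes. Without HGI 9 and HGI 10, 2 of the 10 genes had an unadjusted p under 0.05, against 7.79% of all genes in that fit. These were Gsta4 and Gclc, both lower in HGI, and again no gene passed the adjustment. The median difference was 0.0045 over the 10 genes and 0.0058 over all genes. The values of HGI and LGI mice overlapped for each of the 10 genes, and for all but 0.0386% of genes tested.

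**Figure D1:**
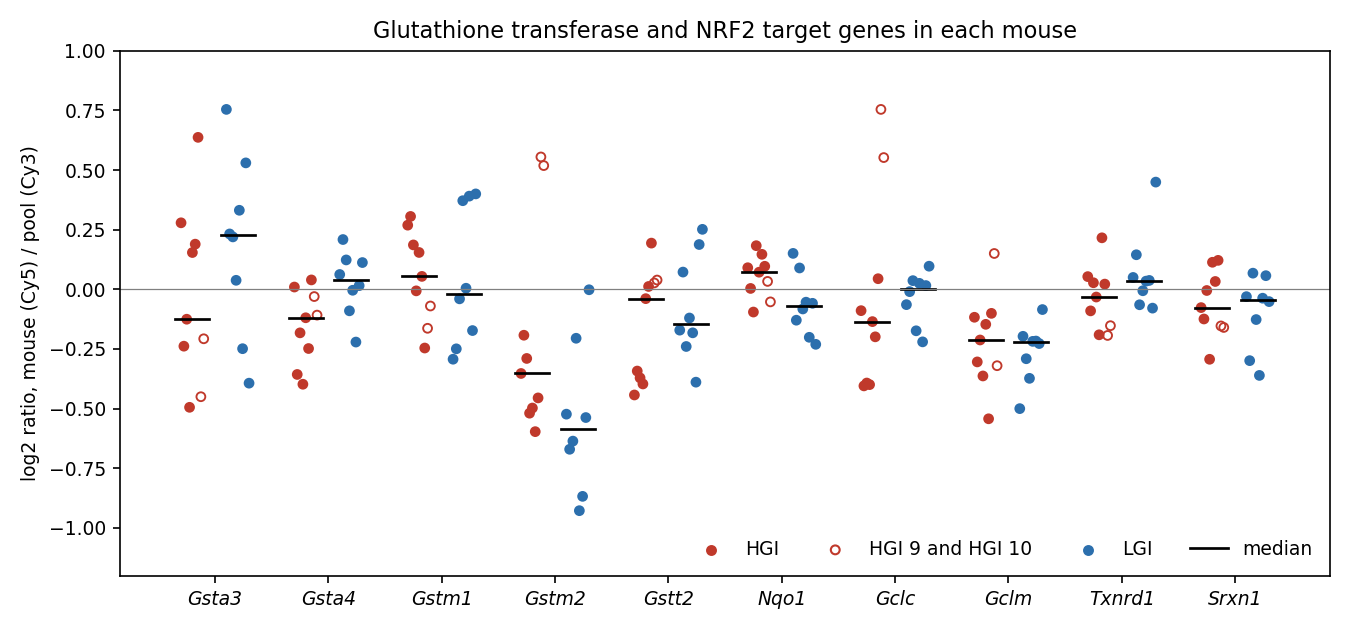
Log2 ratio of each mouse to the pool for the 10 genes, with HGI mice (red) left of LGI mice (blue), a bar at each median, and open circles for HGI 9 and HGI 10. The open circles lie above every other mouse for Gstm2 and Gclc and within the range of the others for Gsta4.

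Gsta4, the alpha-class transferase that acts on hydroxynonenal, was lower on average in HGI mice. Its log2 ratios had a lowest value of -0.40, a median of -0.12 and a highest value of 0.04 in HGI mice, against -0.22, 0.04 and 0.21 in LGI mice. The lowest 3 HGI mice, HGI 4, HGI 2 and HGI 6, lay below every LGI mouse, and the other 6 lay within the LGI range. Means were -0.15 ± 0.16 in HGI mice and 0.03 ± 0.13 in LGI mice (SD, n = 9 and 8). The difference was -0.18 (SE 0.07, 95% interval -0.33 to -0.03), with an unadjusted p of 0.0226 and an adjusted p of 0.583 in limma's fit. In 8 of 9 HGI mice the value was below the LGI median. The gene has 1 probe, and each value is the mean of its 10 spots on the array. The SD between these spots ran from 0.11 to 0.31 over the arrays, with a median of 0.17, near the SD between mice. The probe was dim, with a mean log2 intensity of 7.35. Without HGI 9 and HGI 10 the difference was -0.21 (limma, adjusted p = 0.547). It was -0.10 within the first 8 arrays scanned and -0.24 within the later 9. Macrophage markers ran opposite to Gsta4 across the mice, with the values given with the correlations.

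Gstm2, a mu-class transferase, had the largest estimate of the 10, and it rested on HGI 9 and HGI 10. Its log2 ratios had a lowest value of -0.60, a median of -0.35 and a highest value of 0.55 in HGI mice, against -0.93, -0.59 and -0.0017 in LGI mice. HGI 9 and HGI 10 had 0.55 and 0.52, and the highest of the other 15 mice was LGI 9, so that the rest of the HGI mice lay among the LGI mice. The difference was 0.34 (SE 0.17), with an unadjusted p of 0.051 and an adjusted p of 0.644 in limma's fit, and 8 of 9 HGI mice lay above the LGI median. Without those 2 arrays it was 0.13 (SE 0.11, limma, adjusted p = 0.852). Within the first 8 arrays scanned it was 0.47 and within the later 9 it was 0.23. The mouse value was below the pool on 15 of 17 arrays, all but HGI 9 and HGI 10. The seminal vesicle and smooth muscle genes given above moved with Gstm2 on these 2 arrays, and their part in its value was not tested.

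Gsta3, an alpha-class transferase known in mice for clearing aflatoxin epoxide, spread more widely between mice than most genes. The gene had a lowest log2 ratio of -0.49, a median of -0.13 and a highest value of 0.64 in HGI mice, against -0.39, 0.23 and 0.75 in LGI mice. The ranges of the diets covered nearly the same span. The SD over 17 arrays was 0.379, larger than that of 96.0% of genes tested. The difference was -0.21 (SE 0.16, limma, adjusted p = 0.778), at -0.02 within the first 8 arrays scanned and -0.41 within the later 9. Without HGI 9 and HGI 10 it was -0.13 (SE 0.16, limma, adjusted p = 0.908). A second probe of Gsta3 gave -0.14, and the 2 probes correlated at 0.965 over 17 arrays.

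Gstm1, another mu-class gene on the chromosome of Gstm2, had a difference near 0 with a wide interval. Its log2 ratios had a lowest value of -0.25, a median of 0.05 and a highest value of 0.31 in HGI mice, against -0.29, -0.02 and 0.40 in LGI mice. The LGI mice split into 3 high values, LGI 5, LGI 7 and LGI 9, and 5 at or below 0.0046, and the HGI mice were spread over nearly the same range. The difference was 0.0023 (SE 0.11, 95% interval -0.23 to 0.23), 0.05 without HGI 9 and HGI 10, and -0.02 by the second probe of Gstm1, which correlated with the first at 0.821. Mu-class transcripts are close in sequence, and binding of a related transcript to these probes was not tested.

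Gstt2, a theta-class transferase, had a lowest log2 ratio of -0.44, a median of -0.04 and a highest value of 0.19 in HGI mice, against -0.39, -0.15 and 0.25 in LGI mice. In HGI, 4 mice lay near the bottom of the range (HGI 1, 2, 3 and 4) and the other 5 near or above 0. The difference of -0.07 (SE 0.10, limma, adjusted p = 0.885) did not pass the test. It was -0.12 (SE 0.11) without HGI 9 and HGI 10 and -0.03 without LGI 9, the highest LGI mouse.

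Nqo1, which reduces quinones and is the usual readout of NRF2, varied least between mice of the 10 genes. Its probe was also the dimmest of the 10, with a mean log2 intensity of 7.02, against 13.70 for Gstm1, the brightest. The part of the dim signal in the small spread was not tested. The log2 ratios of Nqo1 had a lowest value of -0.10, a median of 0.07 and a highest value of 0.18 in HGI mice, against -0.23, -0.07 and 0.15 in LGI mice. In 8 of 9 HGI mice the value was above the LGI median, and LGI 1 and LGI 4 lay among the high HGI mice. The difference was 0.12 (SE 0.06, 95% interval -0.01 to 0.25), with an unadjusted p of 0.0713 and an adjusted p of 0.668 in limma's fit. It was 0.18 within the first 8 arrays scanned, 0.05 within the later 9 and 0.14 without HGI 9 and HGI 10. In the authors' deposited values, which follow the Cy5 signal, it was -0.03 (SE 0.09).

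Gclc and Gclm encode the catalytic and the modifier subunit of glutamate-cysteine ligase, which makes the precursor of glutathione. Gclc had a lowest log2 ratio of -0.40, a median of -0.14 and a highest value of 0.75 in HGI mice, against -0.22, 0.0031 and 0.10 in LGI mice. HGI 9 and HGI 10 lay at 0.75 and 0.55, far above the other 15 mice, whose highest value was 0.10, while HGI 2, HGI 3 and HGI 4 lay below every LGI mouse. Over all arrays the difference was 0.0067 (SE 0.14). Without HGI 9 and HGI 10 it turned to -0.19 (SE 0.08), with an unadjusted p of 0.023 and an adjusted p of 0.561 in limma's fit. The 2 arrays thus decided the sign for Gclc, and the seminal vesicle, smooth muscle and epithelial genes were high and the adipocyte, fibroblast and endothelial genes low on them. The part of these cells in the value of Gclc was not tested.

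Gclm had a lowest log2 ratio of -0.54, a median of -0.21 and a highest value of 0.15 in HGI mice, against -0.50, -0.22 and -0.08 in LGI mice. Only HGI 9 lay above the pool, and HGI 10 did not share the high value it had for Gclc. The difference was 0.05 (SE 0.08, limma, adjusted p = 0.917), 0.0083 without HGI 9 and HGI 10, and 0.0001 without HGI 9 alone.

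Txnrd1 encodes cytosolic thioredoxin reductase. The lowest log2 ratio was -0.19, the median -0.03 and the highest 0.22 in HGI mice, against -0.08, 0.04 and 0.45 in LGI mice. The highest value was that of LGI 9, with the other LGI mice at or below 0.145. LGI 9 was also the array with the highest epithelial, motile cilia and sperm markers in LGI, and their part in its Txnrd1 value was not tested. The difference was -0.11 (SE 0.08, limma, adjusted p = 0.755), -0.07 without HGI 9 and HGI 10, -0.05 without LGI 9, -0.02 without all 3 of these arrays, -0.24 within the first 8 arrays scanned and 0.02 within the later 9.

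Srxn1 encodes sulfiredoxin, which restores overoxidized peroxiredoxins. Srxn1 had a lowest log2 ratio of -0.29, a median of -0.08 and a highest value of 0.12 in HGI mice, against -0.36, -0.04 and 0.07 in LGI mice. The diets shared nearly the whole range. The difference was 0.04 (SE 0.07, limma, adjusted p = 0.924), 0.06 without HGI 9 and HGI 10, and the other tested probe of Srxn1 gave 0.0025. The brighter probe, whose values these are, correlated at 0.096 with that probe and at 0.176 with the untested one over 17 arrays. The other 2 probes correlated at 0.653 with each other, so the values above hold for the brighter probe alone.

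**Figure D2:**
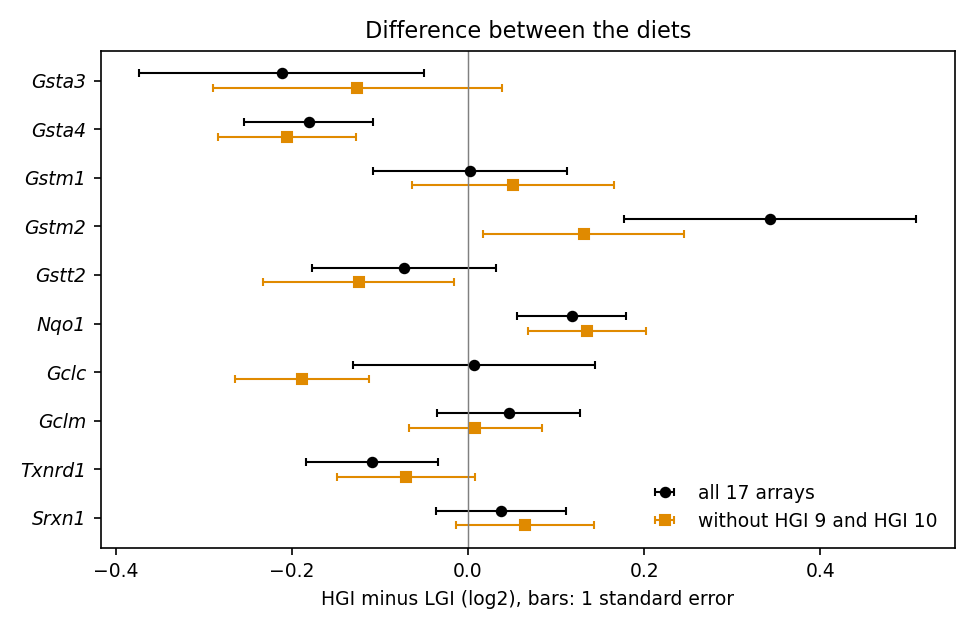
HGI minus LGI of the 10 genes on the log2 scale over all 17 arrays (black circles) and without HGI 9 and HGI 10 (orange squares), with bars of 1 standard error. Gstm2 moves from 0.34 to 0.13 and Gclc from 0.0067 to -0.19 when these arrays are left out, while Gsta4 is at -0.18 and -0.21.

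Whether the 10 genes moved together was asked over the 15 mice other than HGI 9 and HGI 10. Of the 45 pairs, 27 correlated positively, and the median absolute Pearson r was 0.285, against 0.227 for these genes with any tested gene. An absolute r of 0.5 or more was held by 13.3% of the pairs and by 12.5% of the pairs of these genes with any gene. The 5 NRF2 targets gave 10 pairs with r between -0.474 and 0.362 and a median of 0.071. The 5 transferases gave 10 pairs between -0.713 and 0.573 with a median of 0.044. No pair within either kind passed the adjustment.

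The pair that passed the adjustment over 45 pairs was Gsta4 and Gclc. Pearson's r was 0.893 (permutation p = 2e-05, adjusted p = 0.0009) and Spearman's rho 0.861 (permutation p = 0.0001, adjusted p = 0.0045). The r was 0.879 within the 7 HGI mice and 0.789 within the 8 LGI mice, and 0.798 and 0.957 among the arrays scanned first and later. Without HGI 2 and HGI 4, the mice farthest from the median of Gsta4, it was 0.806. Of the genes tested, 0.0556% correlated with Gsta4 as strongly as Gclc did, and 0.106% with Gclc as strongly as Gsta4 did. Over all 17 arrays r was 0.475, with HGI 9 and HGI 10 at the highest Gclc and at middle values of Gsta4.

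Other pairs did not pass the adjustment. Gsta3 and Gstm1 ran opposite ways, with r of -0.713 and rho of -0.714 (permutation p = 0.00312, adjusted p = 0.0702 for r). Their r was -0.429 within HGI mice, -0.883 within LGI mice and -0.835 without LGI 9 and HGI 4. Gstt2 and Gclc had r of 0.673 and rho of 0.636 (permutation p = 0.00674, adjusted p = 0.101 for r), with 0.681 within HGI mice and 0.642 within LGI mice. Nqo1 and Gclm, both NRF2 targets, had r of -0.474 (permutation p = 0.0745, adjusted p = 0.479).

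**Figure D3:**
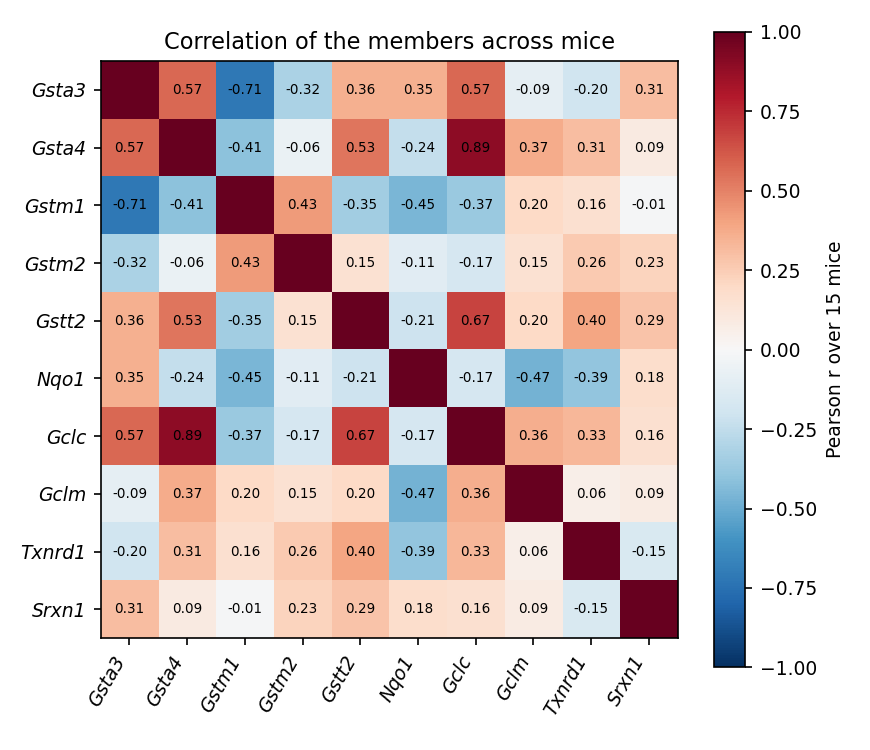
Pearson r of each pair of the 10 genes over the 15 mice other than HGI 9 and HGI 10, on a scale of -1 (blue) to 1 (red). The darkest cell off the diagonal is Gsta4 with Gclc, at 0.89.

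Markers of other cells moved with Gsta4 and Gclc. The mean log2 ratio of 12 macrophage markers ran from -0.23 to 0.64 with a median of 0.12 in HGI mice, and from -0.18 to 0.13 with a median of -0.04 in LGI mice. It correlated with Gsta4 at r of -0.889 and rho of -0.879, and with Gclc at r of -0.888 and rho of -0.821, over the 15 mice. The permutation p of both r was 1e-05, the smallest that the permutations can give, with an adjusted p of 0.00055 over the 110 relations of a gene with a marker list. For Gsta4 the r was -0.897 within HGI mice, -0.781 within LGI mice and -0.910 without the 2 mice farthest from the median of the markers. For Gclc these were -0.910, -0.604 and -0.824. All 12 macrophage markers had a negative r with Gsta4, from -0.93 to -0.015, and 11 of 12 had one with Gclc.

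The third relation that passed was that of Gclc with the mean of 4 epithelial markers, at r of 0.699 and rho of 0.85 (permutation p = 0.00076 and adjusted p = 0.0279 for r). Its r was 0.933 within HGI mice and 0.643 within LGI mice. The mean of 8 mesothelial markers also ran with both genes, at r of 0.668 with Gsta4 and 0.663 with Gclc, without passing (permutation, adjusted p = 0.122 for each). All 8 mesothelial markers had a positive r with both genes. Epithelial and mesothelial cells were not told apart here. No other gene of the 10 had a relation with any of the 11 marker lists that passed the adjustment.

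With the macrophage mean as a covariate, an alternative chosen after seeing the data, the diet difference of Gsta4 was -0.08 (SE 0.06, limma, unadjusted p = 0.238, adjusted p = 0.668). That of Gclc was 0.24 (SE 0.10, limma, adjusted p = 0.312), and that of Gstm2 was 0.52 (SE 0.16, limma, adjusted p = 0.272). Without the covariate these differences were -0.18, 0.0067 and 0.34, in the same order. No gene passed the adjustment in the covariate fit, where 12.2% of all genes had an unadjusted p under 0.05. All 17 arrays were in that fit, among them HGI 9 and HGI 10, which had the highest values of Gclc and Gstm2. The macrophage means of these arrays were -0.23 and -0.09. Leaving them out turned Gclc to -0.19 without the covariate, and the covariate fit was not run without them. The macrophage list itself had 11 of 12 genes higher in HGI, against 52.6% of all genes, and 4 of them had an unadjusted p under 0.05, against 3.96% of all genes. Those 4 were Gpnmb, Cd84, Mpeg1 and Ctss, and the rest ran from -0.08 (Cd14) to 0.32 (Trem2), with Cd68 at 0.12 and Mrc1 at 0.02. The list was chosen with earlier results of these data known, so these counts only describe it. Its median difference was 0.15, and 0.25 without HGI 9 and HGI 10.

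**Figure D4:**
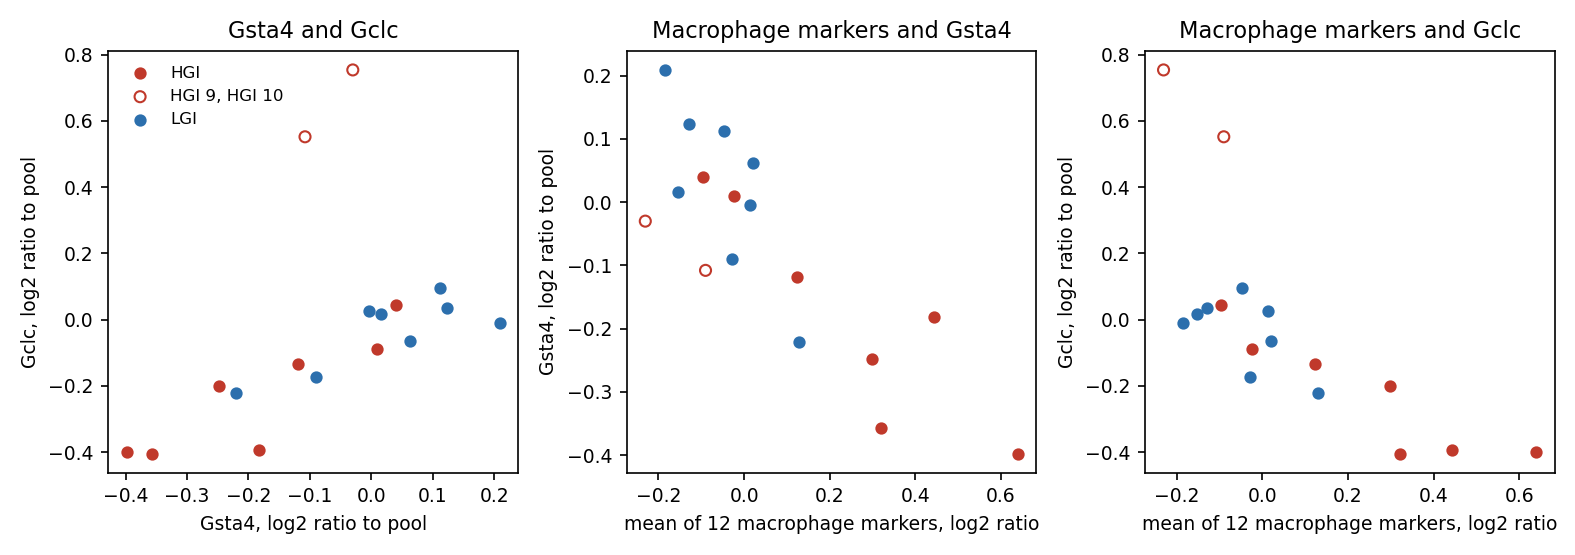
Log2 ratios to the pool of Gclc against Gsta4 (left), and of Gsta4 (middle) and Gclc (right) against the mean of 12 macrophage markers, with HGI mice in red, LGI mice in blue and HGI 9 and HGI 10 as open circles. The filled points follow a rising line in the left panel (r of 0.893) and falling lines in the other panels (r of -0.889 and -0.888).

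Among other glutathione transferases 16 of 20 listed genes were tested, 6 with a higher and 10 with a lower estimate in HGI, and the median difference was -0.04, or -0.01 without HGI 9 and HGI 10. Mgst2, a microsomal transferase, had a difference of -0.27 (SE 0.10, limma, unadjusted p = 0.0113, adjusted p = 0.552). Its log2 ratio ran from -0.40 to 0.0099 in HGI mice and from -0.30 to 0.57 in LGI mice. Gstt1, a theta-class gene, had a difference of -0.18 (SE 0.07, limma, unadjusted p = 0.0155, adjusted p = 0.563), with HGI values from -0.20 to 0.14 and LGI values from 0.05 to 0.52. For both genes each of the 9 HGI values was under the median of LGI.

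Of 18 genes of glutathione supply and recycling 16 were tested, 9 higher and 7 lower, with a median of 0.04, or 0.02 without HGI 9 and HGI 10. Gsr, the reductase that regenerates glutathione, had a difference of -0.19 (SE 0.08, limma, unadjusted p = 0.0332, adjusted p = 0.616), with HGI values from -0.35 to 0.06 and LGI values from -0.30 to 0.30. Ggct, a cyclotransferase of glutathione breakdown, was at 0.15 (limma, adjusted p = 0.668). Of 12 genes of aldehyde removal 9 were tested, 5 higher and 4 lower, with a median of 0.0075, or 0.02 without HGI 9 and HGI 10. Aldh2, the mitochondrial aldehyde dehydrogenase, was at -0.24 (SE 0.09, limma, unadjusted p = 0.0141, adjusted p = 0.563), with all 9 HGI mice below the LGI median. Aldh2 was at -0.16 (limma, unadjusted p = 0.0598) without HGI 9 and HGI 10. Akr1b3, aldose reductase, was at 0.27 (SE 0.12, limma, adjusted p = 0.631), and at 0.10 without these arrays.

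The RNA of NRF2 and of KEAP1 did not pass the test. Nfe2l2 had a lowest log2 ratio of -0.40, a median of -0.14 and a highest value of 0.16 in HGI mice, against -0.20, 0.03 and 0.27 in LGI mice. The groups overlapped widely, and the difference was -0.12 (SE 0.08, limma, adjusted p = 0.756), or -0.06 without HGI 9 and HGI 10. Keap1 was at -0.04 (SE 0.07, limma, adjusted p = 0.921), and Mafg, a small MAF partner, at -0.12 (SE 0.07, limma, adjusted p = 0.697). Of the 15 tested genes of NRF2 and its regulators 9 were higher and 6 lower, none with an unadjusted p under 0.05.

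Other NRF2 targets gave 18 higher and 9 lower estimates among 27 tested of 29, with a median of 0.05. Of these, 4 genes had an unadjusted p under 0.05 in the direction of higher in HGI, where 3.96% of all genes did, and 1 in the direction of lower. Ptgr1, prostaglandin reductase, was at 0.65 (SE 0.24, limma, adjusted p = 0.558), with HGI values from -0.81 to 1.50 and LGI values from -0.98 to -0.29. Its difference without HGI 9 and HGI 10 was 0.30 (SE 0.12, limma, adjusted p = 0.554). Gpx2, a glutathione peroxidase, was at 0.15, Blvra, biliverdin reductase, at 0.21, and Pir, pirin, at 0.12. Tkt, transketolase, was at -0.36 (SE 0.15, limma, adjusted p = 0.604). None of these genes passed the adjustment.

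For each of the 10 genes the most similar other gene over the 15 mice was also sought, by the highest positive r. Genes tested were ranked where RefSeq held their symbol, with the 10 genes and clone or model names left out. Gsta3 followed Cyp2e1, a cytochrome P450, at r of 0.916. Gstm1 followed Cystm1 at 0.936, and the next places, named after their values were seen, held Ephx1, an epoxide hydrolase, at 0.935 and Gstm3 at 0.900. Gclc followed Gpx3, the plasma glutathione peroxidase, at 0.912, and Gsta4 followed Eea1, an early endosome protein, at 0.907. The others were Pold3 for Txnrd1 at 0.923, Ppp6r3 for Gstt2 at 0.893, Ccnh for Srxn1 at 0.878, Olfr247 for Nqo1 at 0.874, Zfp91 for Gstm2 at 0.845 and Mlph for Gclm at 0.793. Each is the highest of the genes so ranked and is given as a description of these 15 mice. Negative r were not ranked, and the macrophage marker Cd84 had r of -0.930 with Gsta4. Over all 17 arrays the r of Gstm1 with Cystm1 was 0.173, of Gstm2 with Zfp91 0.235, of Gclc with Gpx3 0.337, of Nqo1 with Olfr247 0.520, of Txnrd1 with Pold3 0.539 and of Gsta4 with Eea1 0.573. For the other 4 genes it was between 0.663 and 0.923.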

How the data were processed

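Each mouse's RNA (500 ng) was labelled with Cy5 and hybridized against the Cy3 pool, per the labels. The deposited scanner files hold spot intensities made with Agilent Feature Extraction, version 9.1.3.1 per the file headers and 9.5.1.1 per the submitters' processing notes. The authors' deposited log2 values were used only as an alternative: their medians were 8.33 on each array and they correlated with log2 Cy5 intensity at 0.975 to 0.985, so they run as the Cy5 signal does, with centring and normalization not given in the sources used here. They hold no row for the probe of Gsta4.

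Mean intensities were corrected by normexp (offset 50) over all spots and normalized within arrays by loess, with control and outlier-flagged spots at weight 0. Spots of a probe were averaged, and a gene took its brightest tested probe. Diets were compared over all 17 arrays with limma 3.58.1 in R 4.3.3, with Benjamini-Hochberg adjustment over all genes. Correlations used 100000 permutations and Benjamini-Hochberg adjustment over their family. Probes were named by accession or symbol through RefSeq tables where these held them. The number of arrays limits the precision. All arrays were scanned on 1 day, 16 of them with a slide code that differed from array to array and 1 with none, and the first 8 and later 9 by scan time, which differed in Cy5 background, were also compared apart. Some replicate numbers were shared by the diets, and correlations of same-numbered mice ran from -0.379 to 0.261. They are on another measure than the array correlations given above, whose lowest value among the other 15 arrays was 0.374. The values of same-numbered mice are thus not comparable with those. They cannot settle whether the numbers pair the mice, and the main fit used no pairing. The scripts were tested on simulated data. The genes and lists, among them 11 lists of cell type markers, were chosen with earlier results of these data known. Named were the 10 genes, the genes of each pathway list with an unadjusted p under 0.05 (or the 2 smallest p), Nfe2l2, Keap1 and the most similar gene of each.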

Additional observations from a re-analysis of the deposited data

Results flagged for a closer look

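In 5 of 68 groups tested, which covered 34 named genes in each diet, the highest or lowest mouse stood far from the rest of its group, and chance alone flags about 1 in 20 groups. All 5 lay in LGI mice. The measure looks at the gap of the outermost mouse alone, so that HGI 9 and HGI 10, which lay together at the top for Gclc and Gstm2, could not be flagged there. Txnrd1 was at 0.4495 in LGI 9, against -0.0787 to 0.145 in the other LGI mice, and Pold3, the gene most similar to it, was at 0.277 in the same mouse, against -0.1715 to -0.0146. Akr1b3 was at -0.4591 in LGI 9, against -0.1815 to -0.0565. Pir was at 0.1322 in LGI 5, against -0.205 to -0.0761. Ccnh was at -0.3096 in LGI 6, against 0.0098 to 0.2244.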

How the results depend on the processing

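None of the 10 genes passed an adjusted p of 0.05 under any of 38 other settings, and the lowest adjusted p was 0.272, for Gstm2 with the macrophage mean as a covariate. Over all genes 0 passed, except 1 with Cy5 intensities alone, 1 with array weights and 3 without LGI 7, and none of these was of the 10. Gsta4 kept its sign in all 37 settings that hold it, from -0.34 to -0.08, with an unadjusted p under 0.05 in 33, and its adjusted p ran from 0.358 to 0.999. Gsta3 and Gstm2 also kept theirs.

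Leaving out 1 array at a time gave -0.22 to -0.15 for Gsta4, -0.29 to -0.13 for Gsta3, 0.25 to 0.42 for Gstm2, -0.0469 to 0.0521 for Gstm1, -0.0913 to 0.0536 for Gclc -0.1179 to -0.0264 for Gstt2 and -0.0005 to 0.0662 for Srxn1. Signs turned as follows, and the cause was not tested. With processed signals of the scanner software, Gstm1 was -0.0004, Gclc -0.0184 and Gclm -0.015. With Cy5 intensities alone, Gstm1 was -0.0252, Gclc -0.0643, Gclm -0.087 and Srxn1 -0.0169. In the authors' deposited values Nqo1 was -0.0265, Gclc -0.0026 and Srxn1 -0.0239. Gstm1 was -0.0018 with no background correction, -0.0108 as the mean of its probes, -0.0249 within the first 8 arrays scanned and -0.0814 with the macrophage mean as a covariate, where Gstt2 was 0.0477. Gclc was -0.1213 with array weights, -0.1884 without HGI 9 and HGI 10 and -0.1694 without these and LGI 9. Within the later 9 arrays scanned Gclc was -0.0348, Txnrd1 0.0175 and Srxn1 -0.0765. The second probe of Gstm1 was 0.043 without HGI 9 and HGI 10.

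With the replicate number as a block, over the 14 arrays of the 7 numbers that both diets share, Gstm1 was -0.031 and Gclc -0.0171, and the same without the block, since the pairs are balanced. The unadjusted p of Gsta4 was 0.0866 with the block and 0.048 without it on these arrays, 0 genes passed, and 1 of 7 HGI mice correlated best with the LGI mouse of its own number. The count of correlated pairs was 1 in the main setting and 0 over all 17 arrays, within HGI, within LGI and within the first 8 arrays scanned. It was also 0 in the authors' deposited values, which hold 36 of the 45 pairs and, without Gsta4, could not test the pair that passed. The r of Gsta4 and Gclc was 0.475, 0.879, 0.789 and 0.798 in the 4 settings named first. The slide could not be used as a random block, since no slide code was shared by arrays, and that alternative was not run. Dim probes such as that of Srxn1 left out here limit what can be measured.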

Other observations

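Gclc and Gsta4 lie near each other on chromosome 9, with 4 coding genes between them, of which 3 were tested. Over the 15 mice Elovl5, a fatty acid elongase, correlated at 0.525 with Gclc and 0.435 with Gsta4. Fbxo9 correlated at 0.132 with Gclc and 0.370 with Gsta4, and Cilk1 at -0.053 and -0.029. These genes were chosen after the correlation of Gclc with Gsta4 was seen.

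The level of Nfe2l2 or Keap1 RNA was set against the 10 genes after the data were seen, in 20 relations with r between -0.443 and 0.591. None passed the adjustment over the 20, and the smallest adjusted p was 0.260 by permutation. The highest r was that of Nfe2l2 with Txnrd1, at 0.591 with a rho of 0.464 and an r of 0.475 without the 2 mice farthest from the median of Nfe2l2.

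No gene of the other marker lists passed the adjustment, and the lists are given by their counts. These counts only describe the lists, which were chosen with earlier results of these data known. Of 12 adipocyte markers 10 were lower in HGI, with a median difference of -0.16, and of 8 mesothelial markers 7 were lower, with a median of -0.21, against 47.4% of all genes lower. Without HGI 9 and HGI 10 these were 9 of 12 and 8 of 8. Of 8 fibroblast and progenitor markers 6 were higher, of 8 endothelial markers 3, of 4 tested epithelial markers 3, of 11 tested epididymal markers 7, of 5 tested sperm markers 2 and of 4 tested motile cilia markers 1. In the same order, the counts without HGI 9 and HGI 10 were 5, 6, 0, 4, 2 and 2. The median difference of the epithelial markers was 0.12 over all arrays and -0.32 without these 2.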
